A study of Mus musculus with 6 samples.

Results

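The genes described here are the nuclear genes of respiratory complex I and its assembly. They were taken as the rows of the deposited gene table that list a protein_coding transcript and whose symbol starts with Nduf, pseudogene symbols ending in -ps left out. The rule found 46 genes among 32815 gene rows, of which 18114 list a protein_coding transcript. They comprise 7 core subunits, 29 accessory subunits, 8 assembly factors of the Ndufaf series, and Ndufa4 and Ndufa4l2. Ndufa4 carries a complex I name although its protein is now counted with cytochrome c oxidase, and Ndufa4l2 is its paralogue.

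The samples were 6 poly(A) RNA-seq libraries of wild-type C2C12 cells, an immortalised mouse myoblast line. In 3 of them the cells had undergone cyclic mechanical stretch (MS) for 8 h at 1 Hz, on a plate bent at 4 points with a displacement of 4 mm, and the other 3 came from control cells. The series title places the work in a study of NAD+ deficiency and contacts between mitochondria and the endoplasmic reticulum in stress urinary incontinence. All libraries carry the same batch label. Whether a group's libraries are separate cultures is not in the labels, and the p-values therefore cover the spread among 3 libraries a group, possibly a technical one.

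Complex I is the entry point of electrons from NADH into the respiratory chain. Its N module in the matrix oxidises NADH to NAD+ on a flavin, a chain of iron-sulfur clusters carries the electrons to ubiquinone at the Q module, and the membrane arm pumps protons. The core subunits do this chemistry and are divided between the nuclear and the mitochondrial genome, the accessory subunits surround and stabilise them, and assembly factors build and modify the parts without staying in the finished enzyme. In muscle the complex is a main route by which NAD+ is regenerated in mitochondria.

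Libraries did not all look alike beyond their labels. Genes of kidney (10 rows, led by Kap, with Umod and Slc22a6 at 0 in control 1 and control 2) summed to between 96.7 and 107 FPKM in the MS libraries, and to 96.9 FPKM in control 3 but 0.904 and 1.16 FPKM in control 1 and control 2. Genes of tongue and salivary gland (9 of 12 listed genes have a row, and Bpifa2, Dcpp1 and Krt4 were at 0 outside MS 1 and control 3) summed to 143 FPKM in MS 1 and 124 FPKM in control 3, and to between 7.17 and 10.6 FPKM in the other libraries. Markers of differentiated muscle (8 rows) summed to 84.3 FPKM in MS 1 and 60.9 FPKM in control 3, against 1.48 to 2.71 FPKM elsewhere. In MS 1 and control 3 that sum came from 4 of the 8, Acta1, Ckm, Tnnt3 and Tnnc2. The others, Myog, Mymk, Mymx and Myh3, were below 1 FPKM in every library. Myog was at 0.224 FPKM in MS 1 and 0.306 FPKM in control 3, against 0.314 and 0.302 FPKM in control 1 and control 2. Lens genes (9 rows) were at 258 FPKM in MS 1 and 218 FPKM in control 3, against 637 to 844 FPKM. Of 8 myoblast markers, 4 to 6 reached 1 FPKM per library, with Des and Vcam1 above 14 FPKM in each and the satellite cell gene Pax7 at 0 in 5 libraries. Myod1, the regulator that defines myoblasts, was at 0.823 to 1.20 FPKM in MS and 1.42 to 2.00 FPKM in control. Their part in the results below was not tested, and each main count is therefore also given with the 3 sets of libraries that these genes mark as a term (control 1 and 2, control 3 with MS 1, MS 2 and 3), where the difference between MS and control rests on MS 1 against control 3.

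Changes of the complex I genes after stretch were small, and more of them rose than fell. Of the 45 members that reached a mean of 1 FPKM and were tested, 16 rose and 2 fell at an adjusted p under 0.05 (limma on log2(FPKM + 1), Benjamini-Hochberg over all tested genes), and 27 did not pass. Members called in either direction made up 40%, against 53.8% of all 12028 tested genes. Of all tested genes 30.6% rose and 23.2% fell, so the share of members that rose, 35.6%, was near the background, and the share that fell was 4.44%. The highest fold of FPKM + 1 was 1.31 and the lowest 0.842, and every fitted change lay within 0.5 of 0 on the log2 scale. All 45 of the 95% intervals excluded a 2-fold difference in FPKM + 1 by the spread between these libraries. Among all tested genes 80.2% lay within 0.5. The median log2 fold change was 0.09 over the tested members and 0.05 over all tested genes. Values above 0 were found for 34 of the 45 tested members and for 56.2% of all tested genes, and 28 members lay above the median of all tested genes. The lowest MS library exceeded the highest control library for 18 members (35.9% of all tested genes), and the highest MS library was under the lowest control library for 2 (26.8%). With the 3 library sets as a term, 4 members were higher and 1 lower, against 15.3% and 11% of all tested genes. That fit rests on 1 library a group, assumed to vary like the rest. With control 3 and MS 1 set against the other 4 libraries as a term, 16 were higher and 1 lower, against 30.3% and 22.8% of all tested genes. Without control 3 and MS 1, 16 were higher and 1 lower, where 6143 of all 12028 tested genes were called in either direction. In bulk RNA, fewer cells of a type and less RNA per cell cannot be told apart.

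**Figure D1:**
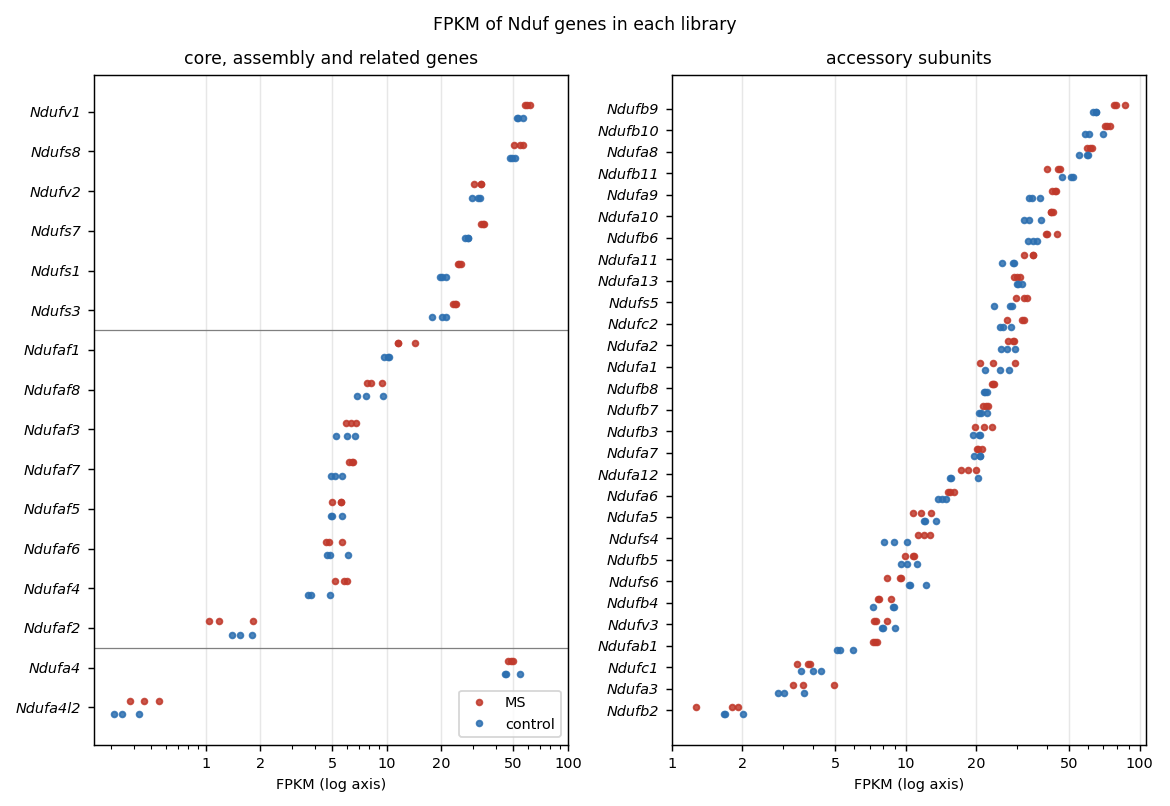
FPKM of the Nduf genes reported here (log axis) in the 3 MS libraries (red, upper points of a row) and the 3 control libraries (blue, lower points), sorted by mean within core, assembly and related genes (left) and accessory subunits (right). Levels span from under 1 FPKM for Ndufa4l2 to above 77 FPKM in each MS library for Ndufb9, while the colours of a row lie close together.

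Of the 7 nuclear core subunits 4 rose and none fell, where 30.6% of all tested genes rose and 23.2% fell. Among those that did not pass, the sign of Ndufv2 turned below 0 with median ratio scaling (-0.02) and with quantile normalization (-0.01). The N module holds Ndufv1, which binds the flavin and NADH, Ndufv2, which carries an iron-sulfur cluster, and Ndufs1, the largest subunit, with further clusters. Ndufs1 (chromosome 1, 63182755 to 63215981, mm39) was at 25.7, 24.7 and 25.2 FPKM in MS 1 to MS 3, against 19.6, 20.1 and 21.3 FPKM in control 1 to control 3. The groups did not overlap, and the log2 fold change was 0.30 (SE 0.05, adjusted p = 0.00191). Ndufv1 (chromosome 19, 4057384 to 4062759) was at 61.4, 58.1 and 59.6 FPKM in MS libraries and 52.5, 52.6 and 56.3 FPKM in control libraries, again without overlap (log2 fold change 0.15, SE 0.05, adjusted p = 0.0338). Ndufv2 (chromosome 17, 66385633 to 66408554) was at 30.1, 33.1 and 33.2 FPKM after stretch and at 29.7, 31.9 and 32.7 FPKM in control cells. Its groups overlapped and its log2 fold change of 0.03 had a 95% interval of -0.11 to 0.17.

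In the Q module, Ndufs7 lines the ubiquinone site, Ndufs8 carries iron-sulfur clusters and Ndufs3 is a structural neighbour. Ndufs7 (chromosome 10, 80084955 to 80092628) stood at 34.3, 33 and 33.8 FPKM in MS and at 27, 27.9 and 28.1 FPKM in control, and rose by 0.27 on the log2 scale (SE 0.04, adjusted p = 0.00158). Ndufs3 (chromosome 2, 90724978 to 90735171) had 23.7, 23.2 and 24 FPKM in MS and 17.8, 21.3 and 20.1 FPKM in control, a rise of 0.25 (SE 0.07, adjusted p = 0.0165). Neither gene's groups overlapped. Ndufs8 (chromosome 19, 3958863 to 3962734) was at 50.3, 54.1 and 56.5 FPKM in MS and at 48, 50.6 and 49.1 FPKM in control, with overlap through MS 1 (log2 fold change 0.12, 95% interval -0.01 to 0.25, adjusted p = 0.104). Of the core genes called, Ndufs1 (adjusted p = 0.0496) and Ndufs7 (adjusted p = 0.0416) passed with the 3 library sets as a term, and Ndufv1 and Ndufs3 did not (adjusted p = 0.227 and 0.229).

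The other core subunits are encoded by the mitochondrial genome, and their transcripts moved the other way. All 7 mt-Nd messenger RNAs, which encode the hydrophobic core of the membrane arm, were lower after stretch, with log2 fold changes from -3.15 to -2.49 and a median of -2.59 (adjusted p from 2.3e-05 to 0.000116). For mt-Nd1 the mean was 501 ± 170 FPKM in MS and 3161 ± 244 FPKM in control (SD, n = 3 each). In the same terms mt-Nd2 averaged 368 ± 109 FPKM in MS and 2018 ± 115 FPKM in control. The values of mt-Nd4 were 292 ± 76.4 FPKM in MS and 1691 ± 61.3 FPKM in control. In these genes the spread within a group was far smaller than the gap between groups. For mt-Nd4l they were 219 ± 63 FPKM in MS and 1561 ± 68.2 FPKM in control, and for mt-Nd5 298 ± 99.9 FPKM in MS and 1743 ± 139 FPKM in control. For mt-Nd6 they were 166 ± 57.8 FPKM in MS and 913 ± 85.7 FPKM in control. The lowest was mt-Nd3, at 20.6 ± 5.85 FPKM in MS and 187 ± 20.3 FPKM in control, and in all 7 genes no MS library reached the level of any control library. Summed over the 7 genes, these transcripts came to 8.10, 4.61 and 5.18 times the summed FPKM of the nuclear core genes in MS 1, MS 2 and MS 3, against 38.7, 38.7 and 41.8 times in control 1, control 2 and control 3. The summed FPKM of the nuclear core genes was 311, 307 and 320 in MS libraries and 275, 288 and 288 in control libraries, and that of the mt-Nd genes 2522, 1416 and 1657 in MS and 10640, 11135 and 12048 in control. Nuclear pseudogene copies of mitochondrial genes exist and how reads that match several places were treated is not known here. Messenger RNAs of mitochondrial genes made up between 1.64% and 2.82% of the summed FPKM in MS and between 12.4% and 13.4% in control. Ribosomal RNA rows, not divided into nuclear and mitochondrial ones, moved the other way. They made up 2.27%, 4.94% and 4.61% of the summed FPKM in MS 1, MS 2 and MS 3. In control 1, control 2 and control 3 they made up 0.727%, 0.797% and 0.646%. Rescaling without mitochondrial and ribosomal RNA rows left all 7 mt-Nd genes called lower. Beyond this scaling, the part of ribosomal RNA in the result was not tested. Of all tested genes 23.2% were called lower. With the 3 library sets as a term all 7 mt-Nd genes were called lower.

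**Figure D2:**
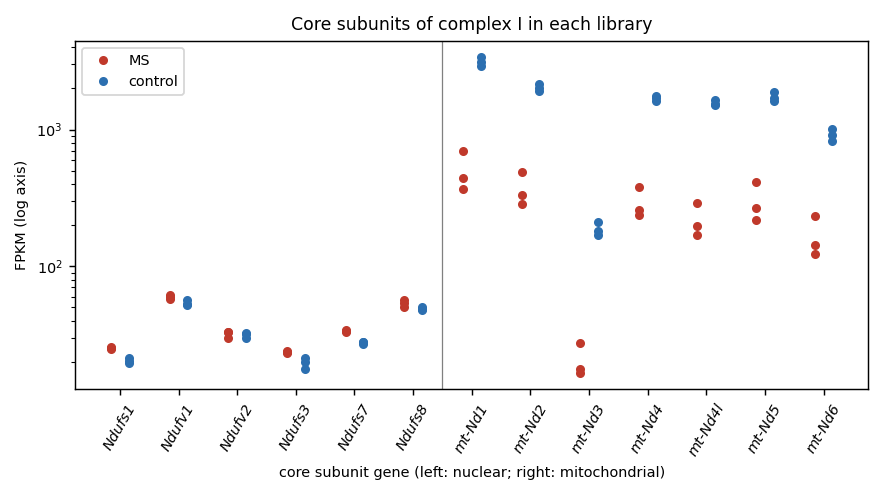
FPKM (log axis) of nuclear (left) and the 7 mitochondrial (right) core subunit genes of complex I in the MS libraries (red, left of each pair) and the control libraries (blue). The mitochondrial genes are lower in every MS library than in any control library, while Ndufs1, Ndufs3, Ndufs7 and Ndufv1 are higher in every MS library.

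Of the 29 accessory subunits 9 rose and 2 fell, with a median log2 fold change of 0.09. The share that rose was near the 30.6% of all tested genes, and 23.2% of all tested genes fell. Accessory subunits of the N module moved both ways. Ndufs4 (chromosome 13, 114424331 to 114524794), which joins the N module late in assembly, was at 12, 11.2 and 12.6 FPKM in MS and at 8.91, 8.11 and 10.1 FPKM in control. It rose by 0.37 (SE 0.08, adjusted p = 0.00787) without overlap of the groups, and did not pass with the 3 library sets as a term (0.22, adjusted p = 0.207). Ndufs6 (chromosome 13, 73467957 to 73476581), a zinc-binding subunit, was at 8.3, 9.44 and 9.53 FPKM in MS and at 10.4, 10.3 and 12.3 FPKM in control. It fell by 0.25 (SE 0.08, adjusted p = 0.0368), again without overlap, and it was the member called lower with the 3 library sets as a term (log2 fold change -0.51, adjusted p = 0.00933). Ndufa2, which has a thioredoxin-like fold, Ndufa12, a paralogue of the assembly factor Ndufaf2, and Ndufv3 are the other accessory genes of this module. Their groups overlapped between groups, with log2 fold changes of 0.05, 0.11 and -0.09, and so did Ndufa5 of the Q module (-0.09).

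Among accessory genes listed for the junction of the arms, Ndufa9 and Ndufab1 rose, and neither was listed for another part of the complex. Ndufab1 (chromosome 7, 121684626 to 121701109) encodes the mitochondrial acyl carrier protein, which also serves fatty acid synthesis. It was at 7.27, 7.38 and 7.54 FPKM in MS and at 5.26, 5.09 and 5.94 FPKM in control (log2 fold change 0.39, SE 0.06, adjusted p = 0.00205). Ndufa9 (chromosome 6, 126798684 to 126826088), which sits by the Q module and binds a nucleotide, was at 43.7, 42.3 and 43.6 FPKM in MS and at 33.7, 34.5 and 37.4 FPKM in control (log2 fold change 0.29, SE 0.05, adjusted p = 0.00289). Both had groups that did not overlap, and both calls were lost with the 3 library sets as a term (adjusted p = 0.0951 for Ndufab1 and 0.0721 for Ndufa9). Ndufa6, a subunit of the LYR protein family, did not pass the test although its groups did not overlap (15.5 ± 0.429 FPKM in MS and 14.3 ± 0.597 FPKM in control, SD, n = 3 each; adjusted p = 0.0988). Ndufa7 was at 20.6 FPKM in MS and 20.4 FPKM in control.

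In the proximal membrane arm, 3 of 9 accessory genes rose, near the 30.6% of all tested genes that rose, and none fell, against 23.2%. Ndufa10 (chromosome 1, 92366732 to 92401582), whose protein has a nucleoside kinase fold, was at 41.6, 41.6 and 42.8 FPKM in MS and at 31.9, 33.5 and 37.7 FPKM in control, a rise of 0.28 on the log2 scale (SE 0.06, adjusted p = 0.00856). Ndufa11 (chromosome 17, 57024767 to 57029141) had 35, 32 and 34.9 FPKM in MS and 25.9, 29.1 and 28.8 FPKM in control, a rise of 0.27 (SE 0.06, adjusted p = 0.00896). For Ndufs5 (chromosome 4, 123606503 to 123611979), a subunit on the side of the intermembrane space, the values were 33, 32.1 and 29.5 FPKM in MS and 23.8, 28.4 and 27.9 FPKM in control, a rise of 0.23 (SE 0.08, adjusted p = 0.0389). These 3 genes had groups that did not overlap, and the call of each was lost with the 3 library sets as a term (adjusted p = 0.218, 0.118 and 0.243). The other genes of the proximal arm, Ndufa1, Ndufa3, Ndufa8, Ndufa13, Ndufc1 and Ndufc2, overlapped between groups, with log2 fold changes from -0.07 for Ndufc1 to 0.24 for Ndufa3. Ndufa3 was at 4.93, 3.29 and 3.65 FPKM in MS and at 3.67, 2.84 and 3.03 FPKM in control, so its highest values were those of MS 1 and control 1.

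In the distal membrane arm, 3 of 10 tested genes rose and 1 fell, where 30.6% of all tested genes rose and 23.2% fell. Ndufb9 (chromosome 15, 58805605 to 58811337), another LYR family subunit and among the most abundant members, was at 86.3, 77.8 and 79.6 FPKM in MS and at 64.8, 63.1 and 65.1 FPKM in control. It rose by 0.33 (SE 0.05, adjusted p = 0.00154) and passed with the 3 library sets as a term (0.40, adjusted p = 0.0102). Ndufb10 (chromosome 17, 24941034 to 24943452), on the side of the intermembrane space, followed in mean level, with 72.6, 71.2 and 74.9 FPKM in MS and 61, 58.4 and 69.4 FPKM in control. Its rise of 0.21 (SE 0.07, adjusted p = 0.0333) was 0.06 (adjusted p = 0.564) with the 3 sets as a term. Ndufb6 (chromosome 4, 40270591 to 40279421) was at 44.4, 40.1 and 39.6 FPKM in MS and at 36.4, 33.3 and 35.1 FPKM in control (log2 fold change 0.24, SE 0.06, adjusted p = 0.014). It passed with the 3 sets as a term (0.33, adjusted p = 0.0382). The X-linked gene Ndufb11 (chromosome X, 20481565 to 20483858) was at 45.5, 40.2 and 44.9 FPKM in MS and at 50.7, 52 and 46.7 FPKM in control. It fell by 0.19 (SE 0.07, adjusted p = 0.0416) and was at -0.04 (adjusted p = 0.787) with the 3 sets as a term, where 45.5 FPKM in MS 1 stands against 46.7 FPKM in control 3.

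The remaining genes of the distal arm did not pass the test. Ndufb8 lay higher in every MS library (23.6 ± 0.304 FPKM in MS and 21.9 ± 0.31 FPKM in control, SD, n = 3 each; adjusted p = 0.0632). Ndufb2, Ndufb3, Ndufb4, Ndufb5 and Ndufb7 overlapped, with log2 fold changes from -0.07 for Ndufb2 to 0.09 for Ndufb3. The row of the subunit Ndufb1 is named Ndufb1-ps in the name table and fell outside the rule, although it lists a protein_coding transcript and RefSeq names it Ndufb1. It was at 4.04, 4.00 and 4.42 FPKM in MS and at 2.88, 3.44 and 3.37 FPKM in control, without overlap.

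**Figure D3:**
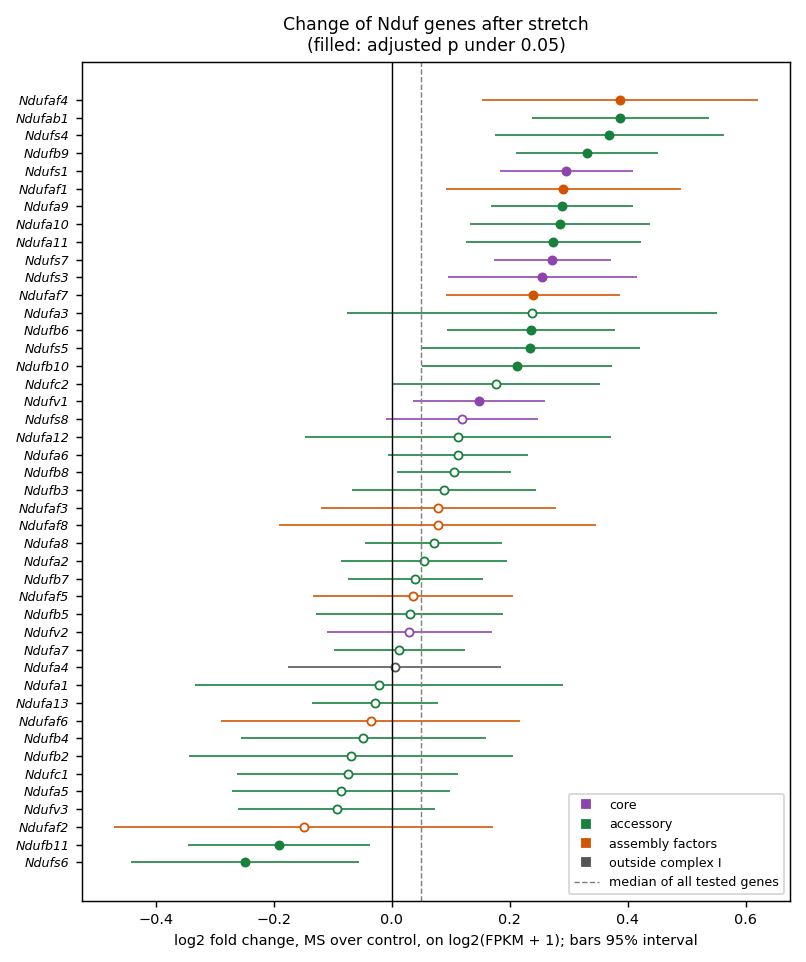
Log2 fold change of MS over control on log2(FPKM + 1) for the tested Nduf genes reported here, with 95% intervals, coloured by class. Filled points passed at an adjusted p under 0.05, open points did not, and the dashed line is the median of all tested genes. Filled points are 16 above 0 and 2 below, Ndufb11 and Ndufs6.

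Assembly factors of the Ndufaf series were all below every core subunit in FPKM, a scale per transcript length. Their group means ran from 1.34 to 12.5 FPKM in MS and from 1.58 to 9.97 FPKM in control, against medians of 33.7 FPKM in MS and 31.4 FPKM in control for the core genes. Of the 8 genes 3 rose and none fell, with a median log2 fold change of 0.08, and the share that rose was near the 30.6% of all tested genes. Ndufaf4 (chromosome 4, 24898083 to 24905001), which acts with Ndufaf3 on the early Q module, was at 5.15, 5.79 and 6.01 FPKM in MS and at 3.66, 3.82 and 4.83 FPKM in control (log2 fold change 0.39, SE 0.10, adjusted p = 0.0141). Ndufaf1 (chromosome 2, 119485927 to 119493308), a member of the complex that assembles the proximal membrane arm, had 11.6, 14.3 and 11.6 FPKM in MS and 10.1, 9.60 and 10.2 FPKM in control, a rise of 0.29 (SE 0.08, adjusted p = 0.0233). Ndufaf7 (chromosome 17, 79244565 to 79255481), which is a protein arginine methyltransferase, stood at 6.5, 6.17 and 6.37 FPKM in MS and at 5.15, 5.66 and 4.89 FPKM in control, a rise of 0.24 (SE 0.06, adjusted p = 0.0153). The groups of these 3 genes did not overlap, as in 35.9% of all tested genes with MS above. With the 3 library sets as a term none of them passed, at adjusted p = 0.597 for Ndufaf4, 0.44 for Ndufaf1 and 0.0579 for Ndufaf7.

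The other 5 Ndufaf genes overlapped between groups. Ndufaf3 was at 5.95, 6.31 and 6.70 FPKM in MS and at 6.62, 5.99 and 5.23 FPKM in control. Ndufaf5, which in human cells hydroxylates an arginine of the Ndufs7 protein, was at 4.95, 5.54 and 5.55 FPKM in MS and at 5.67, 4.92 and 4.99 FPKM in control. Its partner Ndufaf8 had 8.17, 7.80 and 9.35 FPKM in MS and 7.62, 6.86 and 9.48 FPKM in control. None of these shows a direction shared by its libraries. Ndufaf6 was at 4.58, 5.67 and 4.79 FPKM in MS and at 4.64, 4.82 and 6.07 FPKM in control. Ndufaf2, a paralogue of Ndufa12 that acts as the N module is added, was the lowest of the series at 1.81, 1.18 and 1.04 FPKM in MS and 1.40, 1.54 and 1.80 FPKM in control. Its gene overlaps Smim15 on the opposite strand over 4727 bases, and Smim15 was at 15.2 FPKM in MS and 12.6 FPKM in control. No source states whether counting used the strand, so reads of the pair may not be separable. Likewise Ndufb5 overlaps Mrpl47 over 158 bases of the opposite strand, at 4.11 FPKM in MS and 2.93 FPKM in control. Ndufaf3 overlaps Impdh2 over 48 bases, at 40 FPKM in MS and 48.2 FPKM in control. Called members overlap such rows too. Ndufb11 overlaps Rbm10 over 117 bases, at 20.5 FPKM in MS and 19.8 FPKM in control. Ndufs3 overlaps Kbtbd4 over 88 bases, at 4.31 FPKM in MS and 4.23 FPKM in control. Not every overlap is listed here.

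Assembly factors without an Nduf name were listed beside these, 13 genes of which 12 have a row and all 12 were tested. Of the 12, 8 rose and none fell, where 30.6% of all tested genes rose and 23.2% fell, with a median log2 fold change of 0.27. Groups did not overlap, MS above, in 9 of the 12, against 35.9% of all tested genes. The largest of these 12 changes was in Tmem126a, which in human cells takes part in assembling the membrane arm, at 10.3 ± 1.09 FPKM in MS and 5.86 ± 0.454 FPKM in control (SD, n = 3 each), a rise of 0.72 on the log2 scale (SE 0.08, adjusted p = 0.000454). Ecsit, a partner of Ndufaf1 in the assembly of the proximal arm, was at 8.91 ± 1.09 FPKM in MS and 5.82 ± 0.243 FPKM in control (log2 fold change 0.53, SE 0.09, adjusted p = 0.00183). Increases were also called for Dmac2 (0.41), Lyrm2 (0.36), the membrane arm factor Timmdc1 (0.28), the iron-sulfur factor Nubpl (0.26), Tmem70 (0.22), which also serves the ATP synthase, and Foxred1 (0.19), with adjusted p from 0.00583 to 0.0432. Acad9 (0.01), Dmac1 (0.19), Tmem186 (0.18) and Tmem126b (0.28) did not pass. With the 3 library sets as a term 3 of the 12 were called higher (Tmem126a, Ecsit and Lyrm2), against 15.3% of all tested genes. Whether assembly factors differ from subunits in their change was not tested.

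Ndufa4 and Ndufa4l2, which lie outside the complex, had groups that overlapped. Ndufa4 was at 49.8, 46.6 and 48.6 FPKM in MS and at 45.1, 45.6 and 54.4 FPKM in control, with equal means of 48.4 FPKM and a 95% interval of -0.18 to 0.19 for the log2 fold change. Its highest library was control 3. Ndufa4l2, known as a target of hypoxia-inducible factor, was listed at 0.383, 0.55 and 0.454 FPKM in MS and at 0.425, 0.344 and 0.313 FPKM in control. It did not reach the minimum mean of 1 FPKM and was not tested.

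The called genes kept their sign in both pairings of libraries. On the log2(FPKM + 1) scale, MS 1 minus control 3 was above 0 for all 16 genes that rose, and so was the mean of MS 2 and MS 3 minus that of control 1 and control 2. The calls themselves used these libraries, so this is a description of sizes. Ndufaf4 differed most between the pairings, at 0.08 for MS 1 minus control 3 and 0.54 for the other libraries. Ndufs7 was at 0.28 and 0.27 and Ndufa11 at 0.27 and 0.27. Over all tested members the medians were 0.07 and 0.10, beside 0.08 and 0.03 over all tested genes, so within the set of MS 1 and control 3 the members' median was not above that of all genes.

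**Figure D4:**
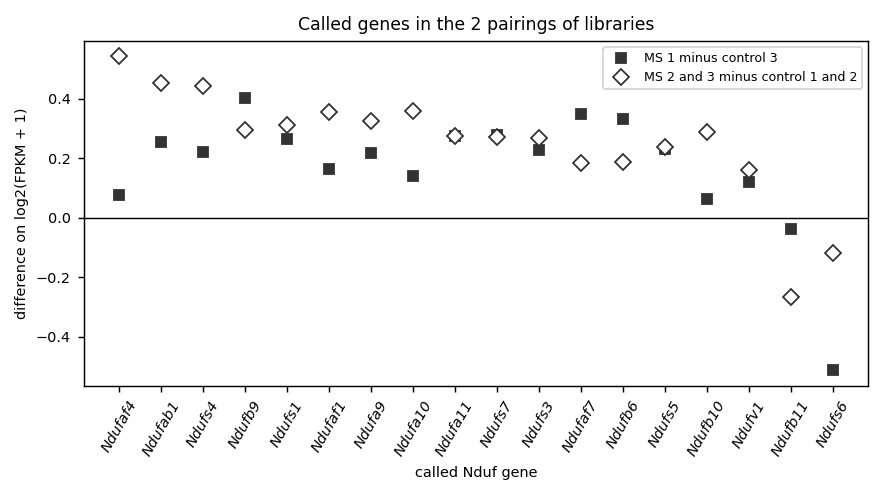
Difference on log2(FPKM + 1) for the 18 called Nduf genes, as MS 1 minus control 3 (filled squares) and as the mean of MS 2 and MS 3 minus the mean of control 1 and control 2 (open diamonds). All 16 genes that rose are above 0 in both, with Ndufaf4 at 0.08 and 0.54.

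Several members have near-identical copies elsewhere in the genome. Coding transcripts of 8 members matched 9 rows that lie elsewhere, at an identity of at least 95% over at least 200 bases, and 5 of these copies averaged at least 1 FPKM. A processed pseudogene of Ndufa12, Gm15920 (99.5% identical over 402 bases), was listed at 48.3, 58.6 and 52.5 FPKM in MS and 48.3, 37.9 and 28.9 FPKM in control. Ndufa12 itself was at 18.4, 17.2 and 20 FPKM in MS and 15.7, 15.5 and 20.5 FPKM in control, below its copy in every library. Control 3 had the highest value of Ndufa12 among controls and the lowest of the copy. The pseudogene Ndufb4c, identical to Ndufb4 over 390 bases, was at 6.14, 9.31 and 8.96 FPKM in MS and 8.03, 7.79 and 7.22 FPKM in control. Ndufb4 was at 8.67, 7.69 and 7.60 FPKM in MS and 8.80, 7.23 and 8.91 FPKM in control, so the copy had about the level of the gene.

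Among the genes that rose, Ndufab1 had the most expressed copies. Its copy Ndufab1-ps (99.4% identical over 469 bases) was at 5.30, 7.92 and 5.95 FPKM in MS and 5.01, 3.71 and 4.18 FPKM in control, and its copy Gm4459 was at 3.79, 3.70 and 3.68 FPKM in MS and 4.21, 3.19 and 4.17 FPKM in control. Gm12251, a copy of Ndufs3, averaged 11.5% of the level of Ndufs3. No source states how the authors divided reads between such rows, and the values of Ndufa12, Ndufb4 and Ndufab1 are therefore uncertain. The copies of Ndufb3, Ndufb11, Ndufs5 and Ndufs6 were below 1 FPKM in every library.

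**Figure D5:**
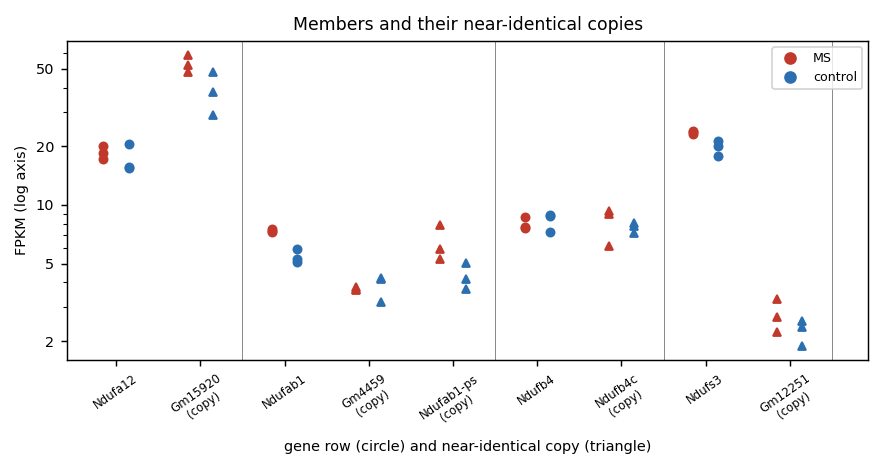
FPKM (log axis) of 4 Nduf genes (circles) and of near-identical copies averaging at least 10% of the gene (triangles), in MS (red, left) and control libraries (blue, right). Gm15920 lies above Ndufa12 in every library, and Ndufb4c at about the level of Ndufb4.

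Members differed far more from each other than between groups. Counting both groups, 6 members averaged at least 50 FPKM (among them Ndufb9, Ndufb10, Ndufa8, Ndufv1 and Ndufs8) and 6 averaged under 5 FPKM (Ndufaf4, Ndufc1, Ndufa3, Ndufb2, Ndufaf2 and Ndufa4l2). The longest coding transcript ran from 419 to 4371 bases with a median of 994. Across the 46 genes, which share libraries and one normalization, Spearman's rho between mean FPKM and this length was -0.17, and across the 45 tested genes rho between the log2 fold change and length was 0.26. No source states which length the authors used for a gene with several transcripts, and the order of levels between genes depends on it. The 46 genes lie on 17 chromosomes.

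Promoter sequence was not used by the rule. RefSeq promoter windows (GRCm38.p6, 250 bases before to 50 after the start) were found for 40 of the 46 genes, and 6 motifs were searched on both strands. The NRF1 motif, a palindromic site of a factor of nuclear respiratory genes, was in the windows of 9 of 40 members (22.5%) and of 5.19% of all 27025 genes in the table. The YY1 motif AAGATGGC was in 8 of 40 members (20%) and 3.19% of all genes. The ETS motif CCGGAAG was in 15% of members and 9.93% of all genes, the estrogen-related receptor motif AAGGTCA in 7.5% and 5.38%, and the antioxidant response element TGACNNNGC in 22.5% and 14%. The ATF4 motif TGANGCAA was in 0 of 40 members and 4.22% of all genes. Overlapping matches were counted, the CpG content of the windows was not matched, and a match is a description of letters.

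The motifs were found in genes that rose, fell or did not pass. NRF1 motifs were in the windows of 3 of 14 genes that rose, 5 of 24 that did not pass and 1 of 2 that fell, and YY1 motifs in 3 of 14, 4 of 24 and 1 of 2. All 8 YY1 matches lay on the strand of the gene and between positions 11 and 39 after the start. The letters ATG within the motif may be the start codon, which was not tested. The windows from 70 bases before to 50 after the start are shown for 6 called genes, since they place these motifs in genes that rose and in Ndufs6, which fell. They read 5′ to 3′ on the strand of the gene, with matches to the NRF1, ETS and YY1 motifs in capitals.
Ndufs7 (rose; chr10:80249379-80249498, plus strand): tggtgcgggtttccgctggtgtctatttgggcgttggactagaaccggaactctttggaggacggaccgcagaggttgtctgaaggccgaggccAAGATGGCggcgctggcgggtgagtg
Ndufs4 (rose; chr13:114388045-114388164, minus strand): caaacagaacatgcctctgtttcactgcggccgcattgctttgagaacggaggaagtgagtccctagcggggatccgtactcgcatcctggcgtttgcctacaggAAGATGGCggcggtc
Ndufa9 (rose; chr6:126849095-126849214, minus strand): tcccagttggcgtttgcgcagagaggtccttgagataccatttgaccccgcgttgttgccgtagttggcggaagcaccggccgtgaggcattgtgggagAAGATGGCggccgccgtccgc
Ndufs6 (fell; chr13:73328433-73328552, minus strand): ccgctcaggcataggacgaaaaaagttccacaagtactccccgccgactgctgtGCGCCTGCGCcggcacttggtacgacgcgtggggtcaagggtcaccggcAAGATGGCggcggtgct
Ndufa11 (rose; chr17:56717692-56717811, plus strand): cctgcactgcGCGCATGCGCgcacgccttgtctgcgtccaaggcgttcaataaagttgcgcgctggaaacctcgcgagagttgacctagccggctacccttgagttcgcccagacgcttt
Ndufs3 (rose; chr2:90904672-90904791, minus strand): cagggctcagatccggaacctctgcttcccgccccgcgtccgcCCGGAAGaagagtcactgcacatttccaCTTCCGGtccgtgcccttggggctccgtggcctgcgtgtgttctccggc
Ndufs6 held both an NRF1 and a YY1 match, Ndufa11 an NRF1 match that reads the same on both strands, and Ndufs3 an ETS match on each strand.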

How the data were processed

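The authors deposited gene-level FPKM (fragments scaled by transcript length and library total), per the file headers. The submitters' processing notes name, in no order and without roles, the build mm39, StringTie 2.1.6, HISAT2 2.2.1, edgeR, DESeq2 and cutadapt 1.9. Libraries were strand-marked poly(A) RNA, per the labels' protocols. Symbols were matched by Ensembl gene ID for 31077 of 32815 rows.

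FPKM is not a count, and sequencing depth is unknown. Ratios of low values placed the libraries' normalizing totals between 0.961 and 1.01 of that of control 1. Tests took genes averaging 1 FPKM or more, on log2(FPKM + 1) with limma 3.58.1 in R 4.3.3 (lmFit, eBayes with a trend, two-sided, Benjamini-Hochberg over all 12028 genes, threshold 0.05), without a covariate. Fold changes are on this scale, which understates low genes. The fit was tested on simulated data with independent noise in each gene and library. That simulation held no library sets shared between groups, so it does not cover them. Copies were found with BLAST 2.17.0 among GENCODE M21 transcripts. Values in each library are given by a rule: every core gene, called gene and Ndufaf gene, the 3 highest members and Ndufa4l2. Those of Ndufa3, Ndufa4, Ndufa12, Ndufb4 and the copies were added after their values were seen. A single member is counted in totals, and its own values are not reported here.

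The members and lists were chosen with earlier results of these data known. Protein sequences were not used here. Alternatives covered the pseudocount, filter, scaling, model terms and left-out libraries.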

Additional observations from a re-analysis of the deposited data

How the results depend on the processing

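Over 19 alternatives, 3 of the 18 called members (Ndufb9, Ndufs1 and Ndufs7) were called in every one, 15 lost the call in at least 1, and none of the 18 changed sign. Another 5 members that had not passed were called in at least 1 (Ndufa12, Ndufa3, Ndufb8, Ndufc2 and Ndufs8). The 7 mt-Nd genes were called lower in all. The 3 library sets as a term, chosen after seeing the data, left 4 members higher and 1 lower, with 2 core subunits, 3 accessory subunits, 0 Ndufaf genes and 3 other assembly factors called. Members that rose numbered 16 in the main fit, 12 without a filter on low values, 14 without a trend and 17 with library weights. They numbered 12 with median ratio scaling and 13 with quantile normalization, where 6276 and 6501 of all 12028 tested genes were called in either direction. With median ratio scaling the median log2 fold change was 0.037 over the tested members and 0.0046 over all tested genes. The members that fell numbered 0 without a filter on low values, and 1 without a trend, with 2 library sets as a term, or without control 3 and MS 1. Ndufaf genes called numbered 1 without a filter. Other assembly factors called numbered 3 without a filter, 5 at a mean of at least 5 FPKM, 4 without control 3 and MS 1 and 5 with median ratio scaling. Leaving out 1 library at a time gave 11 to 17 members higher, 0 to 1 lower, 2 to 4 core, 7 to 11 accessory, 1 to 3 Ndufaf and 4 to 8 other assembly genes called. Over these fits 5373 to 6487 of all 12028 tested genes were called in either direction. No member was called lower without control 1, MS 2 or MS 3, and 1 without control 2, control 3 or MS 1. The count was 2 core genes without MS 3, 7 accessory genes without control 1 or MS 2 and 1 Ndufaf gene without control 2. It was 4 other assembly factors without control 1, control 2 or MS 1 and 5 without MS 2. The cause of these shifts was not tested.

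Same-numbered libraries had deviations from their group means correlated at -0.33, 0.25 and -0.37 over genes, and MS 1 with control 3 at 0.46. The deviations of a group sum to 0, so these correlations depend on each other. They cannot show whether same-numbered libraries were handled together. With the replicate block 15 members were higher and 1 lower, and 5 other assembly factors were called. In that fit 5890 of all 12028 tested genes were called in either direction, against 6470 in the main fit.

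Sign changes occurred in genes that had not passed the test. With the 3 library sets the log2 fold changes were Ndufa12 -0.14, Ndufa2 -0.027, Ndufv3 0.069, Ndufb2 0.068, Ndufb5 -0.042, Ndufa1 0.090, Ndufaf2 0.0032, Ndufaf5 -0.0091, Ndufaf8 -0.19, Ndufv2 -0.12, Ndufa4 -0.12 and Acad9 -0.026. With library weights they were Ndufa7 -0.0083, Ndufb4 0.015, Ndufa1 0.063 and Ndufaf6 0.0029. Without control 3 and MS 1 they were Ndufa7 -0.034 and Ndufaf6 0.12. Median ratio scaling gave Ndufa7 -0.038, Ndufb5 -0.019, Ndufb7 -0.011, Ndufaf5 -0.0087, Ndufv2 -0.023, Ndufa4 -0.048 and Acad9 -0.035. Quantile normalization gave Ndufv2 -0.014 and Ndufa4 -0.049, and rescaling without mitochondrial and ribosomal RNA gave Ndufa4 -0.0068. Leaving out 1 library at a time gave ranges of -0.013 to 0.027 for Ndufa7, -0.14 to 0.044 for Ndufb2, -0.018 to 0.085 for Ndufb5, -0.15 to 0.087 for Ndufa1, -0.11 to 0.066 for Ndufaf6, -0.014 to 0.19 for Ndufaf8, -0.011 to 0.074 for Ndufv2, -0.042 to 0.090 for Ndufa4 and -0.016 to 0.053 for Acad9. Depth is unknown.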
